A study of Mus musculus with 66 samples.

Results

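The comparison described here is RNA-seq of C2C12 cells depleted of Paf1 (siPaf1) against cells that received a non-specific control siRNA (siCtrl, named siNS in the table). C2C12 is a mouse myoblast line of proliferating muscle precursors that fuse into myotubes on induction. The libraries were chosen by their labels: 2 siPaf1 and 2 siCtrl libraries out of 66 samples in the series, each group with 1 library in batch 1 and 1 in batch 2. Every group in the fit, including the 2 siCdc73 libraries and the single siSki8 library of batch 2 that help to estimate the spread, was the same line, transfected with 50 nM siRNA for 48 h and kept as myoblasts. The depletion was transient and the cells were not selected for uptake of the siRNA, so a library averages over all cells of a culture. The labels do not say whether the batches were separate cultures, and p-values measure the spread between these libraries.

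Paf1 is a subunit of the Paf1 complex (Paf1C), with Cdc73, Ctr9, Leo1, Ski8 (gene symbol Wdr61) and Rtf1. The complex travels with RNA polymerase II through gene bodies, where it acts with elongation factors, helps to recruit the enzymes that ubiquitinate histone H2B, and contributes to the formation of transcript 3' ends. In myoblasts, the choice between another round of division and withdrawal from the cell cycle is tied to differentiation: E2F factors drive the genes of DNA replication, a later wave of factors drives the genes of mitosis, and muscle structural genes are induced as cells leave the cycle.

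The gene table listed 9999 gene symbols, and 6521 passed the filter on low counts. Library totals were 6390214 and 5834180 reads in the siCtrl libraries and 6150048 and 2796693 in the siPaf1 libraries, so values of siPaf1 in batch 2 carry the largest counting error. A gene is called risen or fallen when edgeR's quasi-likelihood fit, with the batch as a block, gave it an adjusted p under 0.05 and both batches had the sign of the fit. Levels are given as CPM, read counts scaled to a common library total after TMM normalisation, batch 1 before batch 2. A change is the log2 ratio of siPaf1 to siCtrl, shrunken by a prior count of 2. The value after ± is the standard error of the ratio from the fit itself, without that prior count. CPM is not scaled by gene length, so it compares a gene between libraries and not genes with each other.

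Paf1 itself (chr7:29177970-29184407 in mm9) measured 107 and 159.8 CPM with siCtrl and 20.3 and 31.1 with siPaf1 (log2 -2.36 ± 0.25, adjusted p = 2.34e-08). The change was -2.38 and -2.35 in batches 1 and 2, so the depletion was of like size in both. Of the other subunits in the table, Ctr9, a scaffold of the complex, rose from 172 and 211 to 296 and 328 CPM (log2 0.70 ± 0.22, adjusted p = 0.0155). Wdr61 stood at 49.8 and 129 CPM in siCtrl and 107 and 133 in siPaf1, with log2 changes of 1.09 and 0.04 and an adjusted p of 0.0986. Cdc73 stood at 109 and 98.4 CPM in siCtrl and at 98.5 and 111 in siPaf1, with changes of -0.15 and 0.17. Neither Wdr61 nor Cdc73 passed the test. Leo1 and Rtf1 were not analysed here.

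After depletion of Paf1, 1061 genes rose and 1056 fell, which is 16.3% and 16.2% of the genes tested. Most tested genes of chromosome replication and cell division were among those that fell, and the risen ones included muscle structural genes, actin-binding proteins, Wnt pathway genes and immediate early genes. Changes were often large: 635 genes rose and 627 fell by more than 2-fold, and 211 rose and 131 fell by more than 4-fold. The median log2 change was 1.13 among risen and -1.14 among fallen genes, against 0.02 over all genes tested (0.05 in batch 1 and -0.02 in batch 2). Both siPaf1 libraries were above both siCtrl libraries for 897 of the risen genes, and below them for 926 of the fallen genes, and in the others a siPaf1 library overlapped a siCtrl library of the other batch. Without the block edgeR called 0 genes, with 572 higher and 584 lower at an unadjusted p under 0.05, and the biological coefficient of variation was 0.397 instead of 0.179, while DESeq2 with the batch as a term called 885 risen and 848 fallen. The counts rest most on the siCtrl libraries: without that of batch 2, 400 genes rose and 464 fell, and without that of batch 1, 636 rose and 727 fell. Another 5 genes passed the adjusted p without the same sign in both batches: the histone genes Hist1h2ah, Hist1h4d and Hist2h3b, the calcium channel subunit gene Cacna2d3 and the transcription factor gene Trps1, which were left out of the calls. In bulk RNA, fewer cells that express a gene and less RNA of it per cell cannot be told apart.

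**Figure D1:**
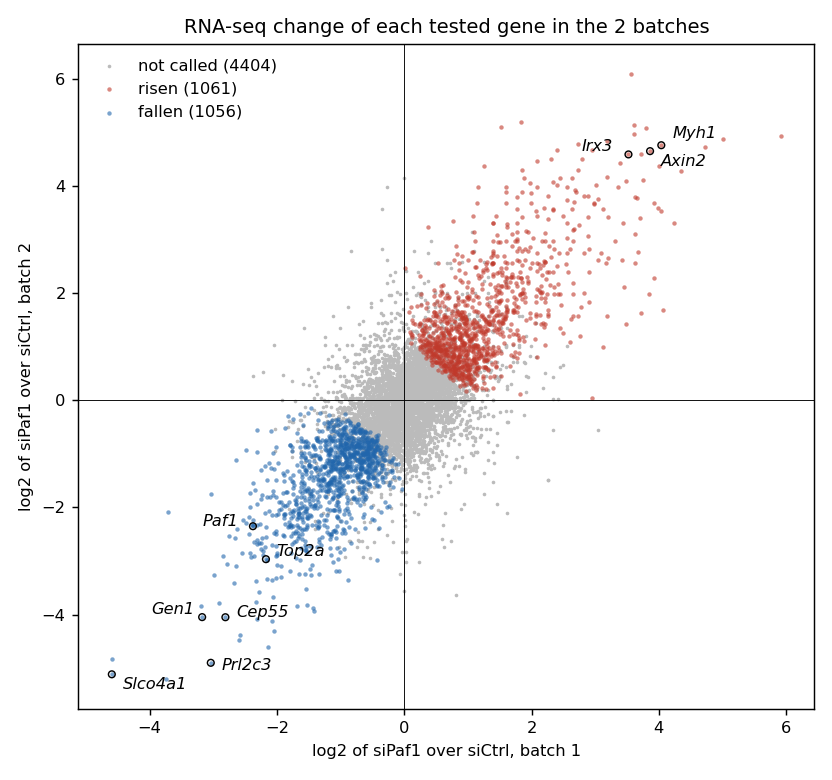
Log2 ratio of siPaf1 to siCtrl in batch 1 (horizontal) and batch 2 (vertical) for each of the 6521 genes tested, with the 1061 risen genes in red, the 1056 fallen genes in blue and the others in grey. Paf1 lies close to the diagonal among the fallen genes, at -2.38 and -2.35, and Axin2, Irx3 and Myh1 lie above 3 in both batches.

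The genes with the largest rise, ranked by the batch in which they changed less and with a mean of at least 50 reads, included Myh1, Axin2, Ypel1, Slc23a3, Dnah10, Irx3, Thsd1, Crybb3, Nfatc4, Cntfr and Pcdhb19. Myh1 (chr11:67013554-67038078), a fast myosin heavy chain of skeletal muscle, stood at 4 and 13 reads in siCtrl and at 102 and 196 in siPaf1, which is 0.559 and 2.19 CPM against 14.7 and 68.4 (log2 4.50 ± 0.43, adjusted p = 1.96e-09). Axin2 (chr11:108781663-108812097), a scaffold of the destruction complex of beta-catenin and itself a Wnt target, rose from 2.80 and 3.36 to 45.4 and 92.8 CPM (log2 4.26 ± 0.36, adjusted p = 3.30e-10). For both genes, every siPaf1 library was far above every siCtrl library. Irx3 (chr8:94322428-94325553), an Iroquois homeobox transcription factor, rose from 16.8 and 8.07 to 196 and 202 CPM (log2 3.96 ± 0.32, adjusted p = 3.27e-10). Nfatc4, a calcium and calcineurin dependent transcription factor, rose from 9.64 and 7.23 to 73.5 and 62.8 CPM (log2 2.97 ± 0.31, adjusted p = 1.23e-08). Cntfr, the receptor subunit for ciliary neurotrophic factor, rose from 2.24 and 3.70 to 16.5 and 59.3 CPM (log2 3.34 ± 0.41, adjusted p = 1.55e-07). Ypel1, a member of the yippee-like family, and Slc23a3, a transporter of the nucleobase and ascorbate family, were almost silent in control myoblasts, with 1.26 and 1.35 CPM for Ypel1 and 1.54 and 1.01 for Slc23a3. They reached 22 and 57.2 CPM and 22.9 and 47.8 CPM in that order. The group also held genes better known from other tissues: Dnah10, an axonemal dynein heavy chain, at 30.2 and 32.8 CPM after siPaf1 against 1.96 and 1.01 in siCtrl, and Crybb3, a lens crystallin, at 34.7 and 42.2 against 3.07 and 2.35. Thsd1, a thrombospondin domain protein, rose from 0.839 and 1.35 to 12.2 and 36.3 CPM, and the protocadherin gene Pcdhb19 from 2.66 and 3.87 to 18.8 and 38.4. In all of these genes both siPaf1 libraries were above both siCtrl libraries. Of them, Ypel1 and Thsd1 could pass the filter on low counts only through knockdown libraries.

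Among the fallen genes the largest changes, by the same ranking, were those of Slco4a1, Xkr5, Lipg, Gen1, Prl2c3, Ercc6l2, Gyk, Cep55, Ngef, Cdk19, Lrp8 and Igsf5. Slco4a1 (chr2:180190950-180209572), an organic anion transporter, fell from 183 and 71 reads to 5 and 0, and Xkr5 from 157 and 58 to 4 and 0. Gen1 (chr12:11246547-11272593), a nuclease that resolves Holliday junctions, fell from 100.2 and 74.7 to 10.8 and 4.19 CPM (log2 -3.55 ± 0.32, adjusted p = 1.96e-09). Cep55 (chr19:38129515-38148915), which acts at the midbody in the last step of cytokinesis, fell from 193 and 231 to 27.2 and 13.6 CPM (log2 -3.46 ± 0.32, adjusted p = 2.86e-09). Gyk, the kinase that phosphorylates glycerol, fell from 68.6 and 38.8 to 9.20 and 4.89 CPM, and Lipg, a secreted lipase, from 35.1 and 25.4 to 2.30 and 0.349. Ngef, a guanine nucleotide exchange factor, fell from 54.5 and 51.6 to 7.62 and 5.93 CPM, Lrp8, a reelin and lipoprotein receptor, from 89.9 and 41.4 to 14.1 and 4.54, and Igsf5, a junctional adhesion protein, from 6.99 and 30.9 to 0.863 and 1.05. Cdk19, a kinase of the Mediator complex, fell from 20.3 and 14.5 to 2.88 and 1.05 CPM (log2 -2.93 ± 0.45, adjusted p = 3.17e-06), and Ercc6l2, a helicase-like DNA repair gene, from 121 and 127 to 15.0 and 12.9 (log2 -3.12 ± 0.28, adjusted p = 1.96e-09). Prl2c3, a proliferin gene, fell from 192 and 978 to 23.0 and 32.5 CPM, but proliferin genes are near-identical copies and reads may have been split among them, so its value is uncertain. In each of these genes both siPaf1 libraries were below both siCtrl libraries.

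Genes of mitosis fell together. In the lists for the kinetochore and spindle checkpoint, the spindle and kinesins, mitotic kinases, cyclins and the anaphase-promoting complex (APC/C), and condensin and cohesin, 60 of 71 genes tested fell and 1 rose, with a median log2 change of -1.83 (-1.53 in batch 1 and -2.18 in batch 2). By list, 18 of 21 kinetochore and checkpoint genes fell (median -1.92), 21 of 22 spindle and kinesin genes (median -1.92), 14 of 19 genes of the kinases, cyclins and APC/C (median -1.80) and 7 of 9 condensin and cohesin genes (median -0.88). Top2a (chr11:98854257-98885503), the topoisomerase that untangles sister chromatids, fell from 2450.4 and 2794 to 543 and 358 CPM (log2 -2.59 ± 0.24, adjusted p = 2.86e-09). Nuf2, a subunit of the kinetochore's microtubule-binding NDC80 complex, fell from 309 and 412 to 60.3 and 65.3 CPM (log2 -2.52 ± 0.26, adjusted p = 1.55e-08), and Cenpn, which reads the centromeric nucleosome, from 209 and 332 to 40.0 and 70.1 (log2 -2.31 ± 0.26, adjusted p = 7.20e-08). Bub1b, a checkpoint kinase-like protein, fell from 386 and 461 to 132 and 86.9 CPM. Prc1, which bundles the microtubules of the central spindle, fell from 694 and 711 to 167 and 55.8 CPM (log2 -2.88 ± 0.29, adjusted p = 1.25e-08), and Ect2, which acts in assembly of the contractile ring, from 362 and 205 to 66.1 and 36.3 (log2 -2.48 ± 0.26, adjusted p = 2.36e-08). For Prc1 the fall was larger in batch 2 than in batch 1, at -2.05 and -3.66. Ccnb2, a mitotic B-type cyclin, fell from 447 and 514 to 98.5 and 86.9 CPM (log2 -2.39 ± 0.25, adjusted p = 2.36e-08), and Foxm1, a transcription factor of G2 and M phase genes, from 179 and 104 to 52.5 and 16.1 (log2 -2.21 ± 0.28, adjusted p = 4.62e-07). Of the condensin subunits, Smc4 fell from 687 and 1040.0 to 185 and 226 CPM and Ncapg from 315 and 362 to 60.8 and 47.8. Subunits of the APC/C went both ways: of the 5 in the list, Anapc1 fell and Cdc27 rose, from 166 and 111 to 244 and 189 CPM (log2 0.66 ± 0.23, adjusted p = 0.0282), and the median over the 5 was -0.08. Of 4 other subunits tested, which the list does not hold, Anapc11 fell (log2 -0.90), and Anapc13, Anapc15 and Anapc16 were not called. With each library left out in turn, 16 to 18 kinetochore genes, 18 to 22 spindle genes and 13 or 14 of the kinases, cyclins and APC/C were called fallen, but Cdc27 was not called without either siCtrl library or without siPaf1 of batch 2.

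**Figure D2:**
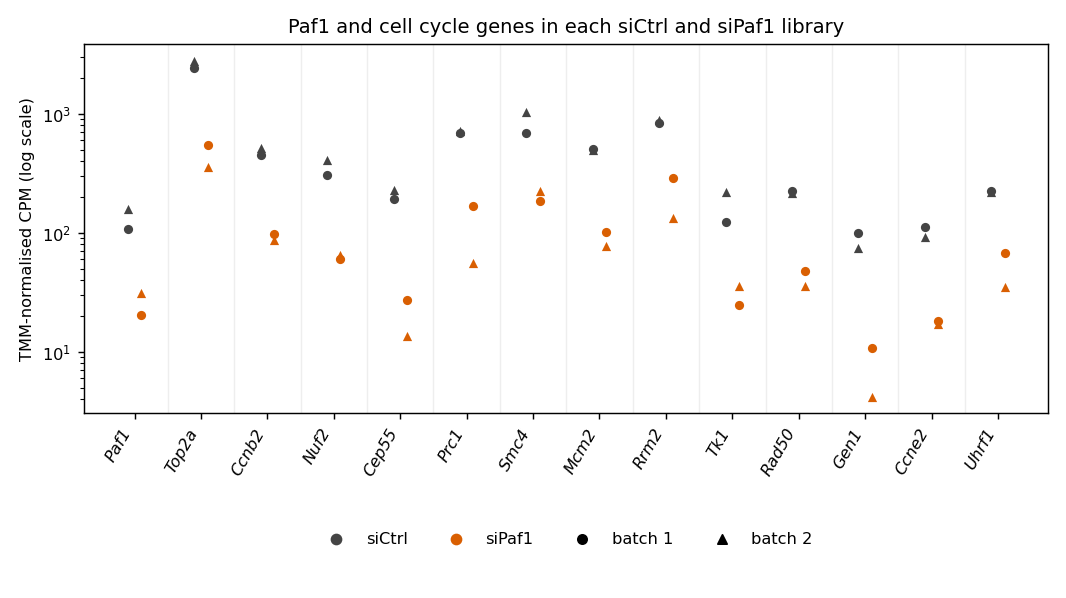
TMM-normalised CPM (log axis) of Paf1 and 13 genes of mitosis, replication, repair and the G1 to S transition in each library, grey for siCtrl and orange for siPaf1, circles for batch 1 and triangles for batch 2. In each gene both orange points lie below both grey points, and Top2a, for example, moves from 2450.4 and 2794 to 543 and 358.

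The stretches that follow are shown because the mitotic genes moved together. The cell cycle genes homology region (CHR, letters TTTGAA) is an element found in promoters of many genes expressed in G2 and M phase, and it was searched on both strands in the 250 bases before the start of the gene, in RefSeq promoters of build GRCm38.p6 with 1 promoter a gene, which covered 5232 of the genes tested. Among the named mitosis genes that fell, 7 promoters held these letters, in capitals below, and each line runs 5' to 3' along the strand of the gene and ends no later than the base before the start.
Ccnb2: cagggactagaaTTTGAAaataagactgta
Ccnf: gctcccggcgcgTTTGAAaacggggc
Cenpn: gccattggcggcTTCAAAagc
Ect2: ccgtttaccggaTTTGAAacacactcacaa
Ncapd2: cagccgttgaggTTTGAAcagggaattgcg
Ncapg: ccgcgatagttgTTTGAAaactctggcgct
Top2a: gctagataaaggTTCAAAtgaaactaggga
In GRCm38.p6 they lie at chr9:70421704-70421733, chr17:24251410-24251435, chr8:116921719-116921739, chr3:27153975-27154004, chr6:125191692-125191721, chr5:45669883-45669912 and chr11:99024195-99024224, on the plus strand for Cenpn and Ncapg and on the minus strand for the others. In Cenpn and Top2a the capitals read TTCAAA, which is the same element on the opposite strand.

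Promoters of 52 fallen mitosis genes were in the table, and 14 of them (26.9%) held TTTGAA, against 10.4% of the promoters of all genes tested, 11.5% of those of fallen genes and 16.3% of all 27025 promoters. CCAAT, the NF-Y box, was in 61.5% of them, against 36.8%, 40.8% and 34.5%. An E2F site, searched as TTTCCCGC or TTTGGCGC, was in 11.5%, against 2.41%, 3.99% and 1.35%, and that of the condensin gene Ncapd2 ends at the base before the start (chr6:125191587-125191606).
Ncapd2, E2F: accatctcgttgTTTGGCGC
None of these 3 searches contains another. Promoters of fallen DNA replication genes held CCAAT in 13 of 22, TTTGAA in 4 (18.2%) and the E2F letters in 2. The TATA box letters TATAAA, in 6.54% of the promoters of genes tested, were in 7.59% of those of risen genes, 5.52% of those of fallen genes and 1.92% of those of the fallen mitosis genes. AP-1 letters, TGANTCA, were in 0 of the 52, against 4.49% of genes tested, and the TCF letters AACAAAG or ATCAAAG in 5.18% of the promoters of risen genes against 5.58%. These are counts of letters in a window and do not show that a factor was bound.

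The fall extended to DNA replication, where 24 of 29 genes tested fell, 1 rose, and the median was -1.34 (-1.28 and -1.62 by batch). Mcm2, a subunit of the replicative helicase, fell from 503 and 492 to 101 and 76.8 CPM (log2 -2.49 ± 0.24, adjusted p = 4.65e-09), and Mcm3 from 676 and 670.2 to 232 and 161. Mcm8, a helicase of homologous recombination and replication restart, fell from 58.6 and 56.7 to 12.4 and 7.33 CPM. Uhrf1, which guides maintenance methylation at replication forks, fell from 225 and 222 to 67.3 and 35.2 CPM (log2 -2.20 ± 0.27, adjusted p = 2.16e-07). The gene that rose was Orc4, a subunit of the origin recognition complex, from 87.5 and 118 to 135 and 185 CPM (log2 0.64 ± 0.23, adjusted p = 0.0342). Among genes of nucleotide synthesis 8 of 15 fell and 1 rose (median -0.61). Rrm2, the regulated subunit of ribonucleotide reductase, fell from 845 and 895 to 289 and 133 CPM (log2 -2.16 ± 0.26, adjusted p = 1.95e-07), and thymidine kinase Tk1 from 124 and 219 to 24.7 and 35.6 (log2 -2.46 ± 0.26, adjusted p = 1.66e-08). Impdh2, of guanine nucleotide synthesis, rose from 15.4 and 59.2 to 25.2 and 90.4 CPM (log2 0.65 ± 0.25, adjusted p = 0.0443), a difference smaller than that between the batches. Leaving out the siCtrl library of batch 2 left 22 replication genes but only 3 of nucleotide synthesis fallen. Orc4 was not called without either siCtrl library or without siPaf1 of batch 2, and Impdh2 lost its call whichever library was left out.

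Recombination and Fanconi repair genes fell in 15 of 22 cases and rose in 0 (median -1.15). Rad50, of the MRE11 complex that senses double-strand breaks, fell from 224 and 216 to 47.6 and 35.9 CPM (log2 -2.41 ± 0.26, adjusted p = 3.18e-08). Brip1, a helicase partner of BRCA1, fell from 75.7 and 73.7 to 18.6 and 13.3 CPM, Rad54l, a motor protein of strand exchange, from 47.5 and 42.2 to 10.5 and 1.4, and Mms22l, which acts at stalled forks, from 111 and 127 to 27.6 and 17.4. Each of them stood lower in both siPaf1 libraries than in either siCtrl library. Of the G1 cyclins, CDKs, Rb and E2F genes 8 of 14 fell and 1 rose (median -0.76). The E-type cyclins Ccne1 and Ccne2, which start S phase, fell from 112 and 183 to 36.8 and 37.7 CPM and from 112 and 92.0 to 18.0 and 17.1 (log2 -2.54 ± 0.29, adjusted p = 9.94e-08). Tfdp1, the dimerization partner of E2F, fell from 450.0 and 301 to 163 and 113 CPM, and Ccnd2, a D-type cyclin, rose from 14.1 and 11.9 to 23.0 and 23.4 (log2 0.81 ± 0.31, adjusted p = 0.0375). When siCtrl of batch 2 was left out, 11 repair genes and 5 of the G1 genes fell. Ccnd2 was not called without either siCtrl library or without siPaf1 of batch 2.

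Replication-dependent histone genes, whose mRNAs end in a stem-loop without a poly(A) tail, fell in 9 of 24 cases and rose in 0, but the batches differed: the median was -0.37 in batch 1 and -1.62 in batch 2. Control levels differed too. Hist1h1d, a linker histone gene, had 28 and 1802 reads in the siCtrl libraries and 3 and 192 in the siPaf1 libraries (log2 -2.11 ± 0.49, adjusted p = 0.00144), so in batch 1 its change rests on few reads. Hist1h2bk had 8 and 175 reads with siCtrl and 4 and 25 with siPaf1. Without the siCtrl library of batch 2, the list had 0 calls, and without the siPaf1 library of batch 2, 4 fell. Histone genes are also near-identical copies, so single genes are uncertain.

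CDK inhibitors and p53 targets moved both ways, with 4 of 20 risen and 4 fallen (median -0.01). Trp53inp1, a stress-induced p53 target, rose from 36.5 and 14.5 to 86.0 and 66.3 CPM (log2 1.67 ± 0.29, adjusted p = 3.39e-05), Ei24 from 40.8 and 39.7 to 138 and 93.9 and Ccng1, cyclin G1, from 175 and 144 to 468 and 198. Xpc, a sensor of nucleotide excision repair, rose from 23.5 and 17.8 to 67.2 and 47.8 CPM. Gdf15, a secreted stress cytokine, fell from 236 and 249.7 to 122 and 91.1 CPM (log2 -1.19 ± 0.24, adjusted p = 2.37e-04), and the INK4 inhibitors Cdkn2c and Cdkn2d fell from 60.1 and 96.9 to 33.6 and 53.7 and from 8.67 and 13.8 to 4.46 and 3.14. Apoptosis regulators were as mixed, with 3 of 24 risen and 3 fallen. Casp12, an inflammatory caspase, rose from 21.7 and 45.6 to 62.8 and 168 CPM (log2 1.70 ± 0.25, adjusted p = 4.19e-06), Bcl2l11, the pro-apoptotic Bim, from 8.11 and 8.07 to 15.7 and 24.1, and Cflar, an inhibitor of death receptor signalling, fell from 49.2 and 17.0 to 21.3 and 6.63. Both lists hold shares close to those over all genes tested, and without the siCtrl library of batch 1, 3 CDK inhibitor and p53 genes rose and 1 fell (4 and 1 without that of batch 2, where 1 apoptosis gene rose and 2 fell).

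**Figure D3:**
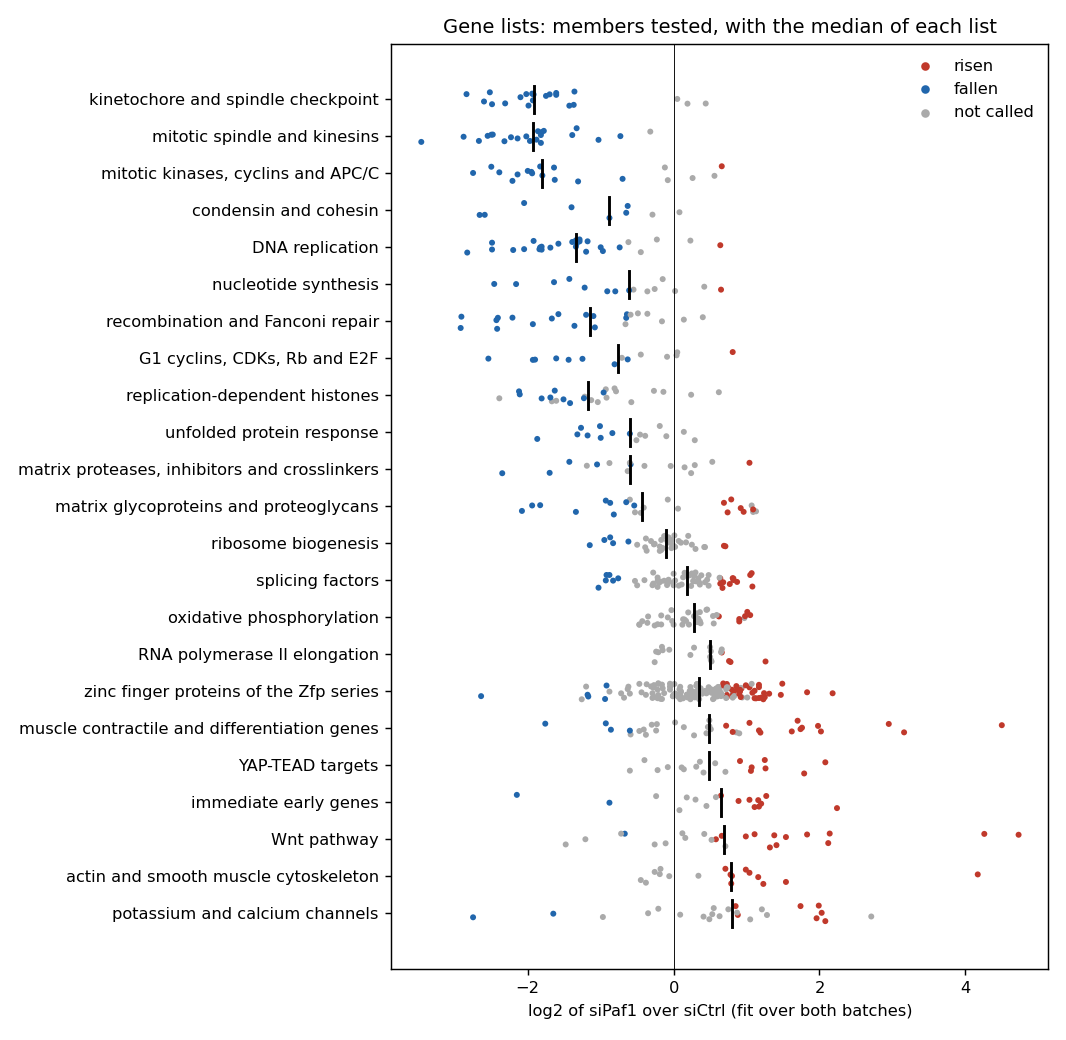
Log2 ratio of siPaf1 to siCtrl over both batches (horizontal) for every tested member of 23 gene lists, 1 row a list, red for risen, blue for fallen and grey for members not called, with a black bar at the median of the list. The lists of mitosis and DNA replication have medians between -1.92 and -0.88, and those of the Wnt pathway and of actin and smooth muscle genes have medians of 0.68 and 0.78.

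More genes of the Wnt pathway rose than fell. Of 24 tested, 13 rose and 1 fell, with a median of 0.68 (0.60 in batch 1 and 0.89 in batch 2). Over the list, 16 lay above 0 in both batches and 5 below 0 in both. The 10 not called included Notum (log2 -1.48), Dkk3 (-1.21), Apcdd1 (0.16) and Tcf7 (0.12). The activity of the pathway was not tested. Wnt ligands bind Frizzled receptors and stabilise beta-catenin, which switches on targets that include the pathway's own brakes. Beside Axin2, the receptor gene Lgr5, which is also a Wnt target, had 0 and 0 reads in the siCtrl libraries and 63 and 26 in the siPaf1 libraries (chr10:114887367-115024836). Set against a floor of 3 reads in each siCtrl library, it was at least 21.6-fold higher in batch 1 and at least 18.0-fold in batch 2. Lgr5 counts among the 13 risen genes, but it could pass the filter on low counts only through knockdown libraries. The Frizzled receptor Fzd2 rose from 220.1 and 195 to 588 and 515 CPM (log2 1.41 ± 0.23, adjusted p = 1.75e-05), with log2 changes of 1.42 and 1.4 in the batches. Sfrp2, a secreted Wnt modulator, rose from 34.4 and 10.8 to 125 and 63.9 CPM (log2 2.14 ± 0.29, adjusted p = 9.78e-07). The member that fell was Apc, a scaffold that promotes degradation of beta-catenin, from 334 and 205 to 161 and 162 CPM (log2 -0.67 ± 0.25, adjusted p = 0.0409), with changes of -1.05 and -0.34, so the fall was mostly that of batch 1. Without the siCtrl library of batch 2, 8 of the pathway's genes rose and 0 fell, and without that of batch 1, 9 rose and 0 fell.

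Muscle contractile and differentiation genes rose in 14 of 35 cases and fell in 4 (median 0.49, with 0.66 in batch 1 and 0.22 in batch 2). Of the 35, 17 lay above 0 in both batches and 7 below 0 in both. Actc1, cardiac alpha-actin, which is expressed in developing skeletal muscle, stood at 5.73 and 21.9 CPM in siCtrl and 21.7 and 93.5 in siPaf1 (log2 1.98 ± 0.30, adjusted p = 5.10e-06). The groups overlapped slightly for Actc1, since the siCtrl library of batch 2 was as high as the siPaf1 library of batch 1, while the change within the batches was 1.86 and 2.08. Tnnt1, slow skeletal troponin T, rose from 5.31 and 13.6 to 17.8 and 68.7 CPM (log2 2.02 ± 0.33, adjusted p = 1.25e-05), and Chrng, the fetal gamma subunit of the muscle acetylcholine receptor, from 10.5 and 21.0 to 36.2 and 71.9 (log2 1.76 ± 0.29, adjusted p = 1.65e-05). The members that fell were Cdh15, Myl6b, Sgcb and Xirp1. Cdh15, M-cadherin of myoblasts, fell from 789.9 and 1015 to 351 and 626 CPM (log2 -0.93 ± 0.22, adjusted p = 0.00184), and Myl6b, a myosin light chain, from 27.7 and 123 to 18.3 and 57.6. Of 10 myogenic transcription factors tested 4 rose and 0 fell (median 0.17). Those were Myf6, of the MyoD family, with 7 and 5 reads in siCtrl and 20 and 19 in siPaf1, the E proteins Tcf3 and Tcf4, which pair with MyoD family members, and Eya4, a cofactor of homeobox factors. Myf6 could pass the filter on low counts only through knockdown libraries. Tcf3 rose from 190.2 and 131 to 333 and 404 CPM (log2 1.21 ± 0.24, adjusted p = 2.34e-04). With siCtrl of batch 2 left out, 7 muscle genes rose and 1 fell, and 1 of the transcription factors rose.

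Actin and smooth muscle cytoskeleton genes rose in 10 of 17 cases and fell in 0 (median 0.78). Tpm1, a tropomyosin, rose from 491 and 963 to 1206 and 1952 CPM (log2 1.16 ± 0.22, adjusted p = 1.05e-04), Pdlim7, an actin-associated LIM protein, from 201 and 350.0 to 455 and 854 (log2 1.23 ± 0.22, adjusted p = 7.06e-05), and Cnn1, smooth muscle calponin, from 13.4 and 12.8 to 30.3 and 49.6 (log2 1.54 ± 0.31, adjusted p = 2.77e-04). Des, the muscle intermediate filament protein, rose from 697 and 1428 to 1338 and 1978 CPM (log2 0.71 ± 0.21, adjusted p = 0.0116). Myh11, smooth muscle myosin, had 0 and 0 reads in siCtrl and 37 and 20 in siPaf1, at least 12.7-fold and 13.8-fold above the floor of 3 reads. Myh11 counts among the 10 risen genes, but it could pass the filter on low counts only through knockdown libraries. Non-muscle myosin Myh9 stood at 4320.1 and 2227 CPM in siCtrl and 3471 and 1948 in siPaf1, with changes of -0.32 and -0.19 and an adjusted p of 0.360. Targets and factors of YAP and TEAD, which respond to cell tension and spreading, rose in 7 of 18 cases and fell in 0 (median 0.49), among them Amotl2, an angiomotin, from 313 and 159 to 659.6 and 428 CPM (log2 1.25 ± 0.23, adjusted p = 8.18e-05), Dlc1, a GTPase-activating protein, from 84.8 and 35.8 to 180.3 and 98.1, and Edn1, endothelin 1, from 4.75 and 4.37 to 21.3 and 19.5. Of the genes named here as risen, only Des had siPaf1 and siCtrl libraries that overlapped. Fewer of the actin and smooth muscle genes were called risen without the siCtrl library of batch 1. The risen YAP and TEAD genes were fewer without the siCtrl library of batch 2 and more without the siPaf1 library of batch 1. Without either siPaf1 library a fall was called among them.

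Immediate early genes, which respond to growth factor signals within minutes, rose in 9 of 17 cases and fell in 2 (median 0.65). Fos, a subunit of AP-1, rose from 4.47 and 5.05 to 22.3 and 25.5 CPM (log2 2.24 ± 0.34, adjusted p = 4.17e-06), with changes of 2.23 and 2.26. Dusp4, a phosphatase of MAP kinases, rose from 203 and 108 to 441 and 250.2 CPM, Fosl2 from 54.2 and 22.7 to 88.3 and 86.9 and Ier5 from 143 and 89.8 to 281 and 246. Fosl1, another AP-1 subunit, fell from 106 and 84.6 to 72.0 and 34.9 CPM (log2 -0.88 ± 0.25, adjusted p = 0.00802), and Egr2 from 39 and 7 reads to 4 and 1. Only 3 immediate early genes rose and 1 fell when siCtrl of batch 2 was left out. Of the EGF, FGF, PDGF, VEGF and IGF signalling genes 7 of 26 rose and 3 fell. Bdnf, a neurotrophin, rose from 175 and 104 to 243 and 324 CPM (log2 1.05 ± 0.26, adjusted p = 0.00210), Areg, an EGF receptor ligand, from 53.1 and 74.7 to 116 and 154, Spry2, a feedback inhibitor of receptor signalling, from 204 and 150.0 to 316 and 417, and Igfbp3, an IGF-binding protein, from 22.8 and 10.9 to 66.3 and 48.9. Fgf7, Nrp2 and Vegfb fell, the last of them from 57.4 and 133 to 25.9 and 60 CPM (log2 -1.15 ± 0.29, adjusted p = 0.00312). Of these signalling genes 3 rose and 2 fell when siCtrl of batch 2 was left out.

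Of the TGF-beta and BMP genes 5 of 22 rose and 5 fell (1 and 3 without the siCtrl library of batch 1, 1 and 2 without that of batch 2). Fst, follistatin, which binds activins and myostatin, rose from 25.7 and 8.91 to 60.1 and 16.1 CPM (log2 1.04 ± 0.32, adjusted p = 0.0113), and Tgfb3, a ligand, from 90.4 and 57.0 to 159 and 109. Grem1, a BMP antagonist, fell from 339 and 55.2 to 80.2 and 12.2 CPM (log2 -2.11 ± 0.26, adjusted p = 2.24e-07), Ltbp1, which stores latent TGF-beta in the matrix, from 965 and 659 to 444 and 270.1, and the receptor Acvr1 from 169 and 145 to 88.3 and 69.8. Id3, an inhibitor of E proteins, was called risen, from 916 and 198 to 922 and 1092 CPM, but its change was 0.01 and 2.46, that is in batch 2 only. Of the Notch genes 2 of 12 rose and 1 fell, beside 16.3% and 16.2% of all genes (1 and 1 without the siCtrl library of batch 1, 1 and 0 without that of batch 2). Jag1, a ligand, rose from 35.1 and 15.3 to 73.5 and 63.2 CPM, Hes6, a Hes family factor of neurons and myoblasts, from 41.9 and 43.9 to 98.9 and 58.6, and Adam10, the protease that cuts Notch, fell from 404 and 232 to 269 and 135. Cytokine and NF-kB genes fell in 5 of 15 cases and rose in 2, with fewer falls called without the siCtrl library of batch 2. The list's median was 0.21 in the fit over both batches, but -0.44 in batch 1 and -0.05 in batch 2. The members went apart. Il33, an alarmin, rose from 5.03 and 10.4 to 38.0 and 42.9 CPM (log2 2.39 ± 0.34, adjusted p = 2.20e-06). Ptgs2, the inducible cyclooxygenase, rose from 127 and 51.6 to 347 and 269 CPM (log2 1.89 ± 0.25, adjusted p = 7.29e-07). Ccl2, a monocyte chemokine, fell from 29.8 and 71.0 to 9.49 and 15.0 CPM (log2 -1.92 ± 0.30, adjusted p = 7.89e-06).

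Of 17 genes for H2B ubiquitin and H3 methylation enzymes, which act on chromatin marks tied to Paf1C, 5 rose and 3 fell, against 16.3% and 16.2% of all genes tested. Ube2a and Ube2b, the mouse homologs of Rad6, the enzyme that conjugates ubiquitin to H2B, rose from 48.6 and 91.8 to 111 and 322 CPM (log2 1.49 ± 0.24, adjusted p = 1.77e-05) and from 73.9 and 161 to 187 and 478 (log2 1.45 ± 0.24, adjusted p = 2.18e-05). Kdm5b, a demethylase of histone H3 lysine 4, rose from 50.5 and 47.4 to 270.1 and 215 CPM (log2 2.29 ± 0.24, adjusted p = 2.36e-08), a level that did not overlap with siCtrl, and its paralog Kdm5a from 111 and 69.8 to 213 and 148. Ezh2 and Eed, subunits of Polycomb repressive complex 2, fell from 556 and 884 to 255 and 395 CPM (log2 -1.14 ± 0.22, adjusted p = 1.69e-04) and from 143 and 171 to 89.9 and 76.4, and Whsc1, a methyltransferase of H3 lysine 36, from 260.2 and 159.8 to 110.2 and 84.8. Of the elongation genes 4 of 19 rose and 0 fell (median 0.50). They were Tceb1, elongin C, from 56.3 and 229 to 181 and 414 CPM (log2 1.26 ± 0.24, adjusted p = 1.56e-04), the P-TEFb cyclin Ccnt1, from 61.5 and 29.1 to 93.9 and 56.9, Ccnk, the cyclin of CDK12 and CDK13, and Aff4, a scaffold of the super elongation complex. In Aff4, Ccnt1 and Tceb1, siPaf1 and siCtrl libraries of different batches overlapped, and the risen elongation genes numbered 1 without either siCtrl library and 8 without the siPaf1 library of batch 1.

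Of 14 cleavage and polyadenylation genes 2 rose and 1 fell. The shares in this and the next lists are read against the 16.3% risen and 16.2% fallen of all genes tested. Pcf11, which couples termination to cleavage, fell from 208 and 222 to 100.4 and 97.0 CPM (log2 -1.13 ± 0.24, adjusted p = 5.97e-04), whereas Cstf2t, a CstF subunit, rose from 107 and 58.5 to 204 and 118 and Sympk, symplekin, from 351 and 451 to 568 and 705. Among splicing factors 12 of 60 rose and 6 fell (median 0.18). Slu7, of the second splicing step, rose from 102 and 118 to 207 and 260.3 CPM and Srsf9 from 196 and 197 to 339 and 380.0. Luc7l2, of the U1 snRNP, fell from 206 and 131 to 83.8 and 88.3 CPM and Snrpa1, of the U2 snRNP, from 176 and 352 to 101 and 168. Zinc finger genes of the Zfp series, most of them of unknown target, rose in 35 of 145 cases and fell in 5 (median 0.35, and above 0 in both batches for 85). Zfp146 rose from 31.9 and 30.4 to 77.2 and 72.6 CPM (log2 1.25 ± 0.26, adjusted p = 3.67e-04), Zfp410 from 95 and 90.5 to 193 and 228 and Zfp260 from 23.1 and 17.5 to 73.6 and 44.0. Zfp367 fell from 33.5 and 31.6 to 6.04 and 3.84 CPM (log2 -2.64 ± 0.36, adjusted p = 8.97e-07). Without the siCtrl library of batch 2, 10 Zfp genes rose and 1 fell, 2 splicing factors rose and 1 fell, and 0 genes of cleavage and polyadenylation were called, without the siCtrl library of batch 1, 13 Zfp genes rose and 2 fell, and without the siPaf1 library of batch 2, 19 rose and 4 fell.

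Genes of the extracellular matrix changed in both directions. Of 24 matrix glycoproteins and proteoglycans 6 rose and 9 fell, and of 16 proteases, inhibitors and crosslinkers 1 rose and 5 fell. Lamc1, the gamma chain common to most laminins, fell from 1089.6 and 382 to 202 and 114 CPM (log2 -2.08 ± 0.24, adjusted p = 1.30e-07), Fbln1, fibulin 1, from 216 and 282 to 74.3 and 64.6 (log2 -1.83 ± 0.25, adjusted p = 1.13e-06), and Tnc, tenascin C, from 1891 and 1524 to 672 and 661 (log2 -1.34 ± 0.23, adjusted p = 4.31e-05). Htra1, a secreted serine protease, fell from 452 and 831 to 112 and 125 CPM (log2 -2.35 ± 0.24, adjusted p = 1.4e-08), and Loxl2, which crosslinks collagen, from 166 and 223 to 90.5 and 50.9. In the other direction, Thbs1, thrombospondin 1, rose from 5578 and 2199 to 10040.4 and 3649 CPM (log2 0.79 ± 0.20, adjusted p = 0.00285), Sdc2, a cell surface proteoglycan, from 208 and 145 to 333 and 408, and Timp3, an inhibitor of metalloproteases, from 63.7 and 52.6 to 173 and 82.4. Of 15 genes with Col names, all collagens but Col4a3bp, a ceramide transfer protein that was not called, 4 rose and 2 fell (5 and 0 without the siCtrl library of batch 1, 3 and 1 without that of batch 2). Col5a3 rose from 83.9 and 86.9 to 164 and 249 CPM, and Col4a1, of basement membranes, fell from 981 and 483 to 656 and 298. Integrins and focal adhesion genes fell in 6 of 18 cases and rose in 1, Itgb1bp2, an integrin-binding protein. Itgav, the integrin alpha V chain, fell from 722 and 313 to 266 and 97.4 CPM (log2 -1.56 ± 0.23, adjusted p = 4.17e-06), and the alpha-actinins Actn1 and Actn4 from 1925 and 1902 to 1286 and 1049.6 and from 2051 and 2009 to 1210.1 and 1161. With siCtrl of batch 2 left out, 2 of the glycoproteins and proteoglycans rose and 5 fell, and 1 of the integrin and adhesion genes rose and 2 fell.

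Of 70 potassium and calcium channel genes listed, only 24 passed the filter on low counts. Among these, 7 rose and 2 fell (median 0.80). A gene low in siCtrl passes that filter more readily where siPaf1 or siCdc73 raises it. In the lowest quintile of all genes tested by siCtrl RPKM, 25.7% rose and 3.37% fell, with a median of 0.53. How far the filter shaped the channel median was not tested. Cacnb3, a calcium channel beta subunit, rose from 157 and 146 to 284 and 275 CPM (log2 0.88 ± 0.23, adjusted p = 0.00360), and Kcnn4, a calcium-activated potassium channel, fell from 299 and 174 to 98.1 and 52.3 (log2 -1.65 ± 0.25, adjusted p = 4.89e-06). Of 117 genes with Slc names 15 rose and 22 fell, shares near those over all genes, and these include Slc9a3r2 and Slc4a1ap, which rose and are not transporters. Slc33a1, the acetyl-CoA transporter of the endoplasmic reticulum, fell from 79.5 and 69.1 to 22.4 and 13.3 CPM (log2 -2.05 ± 0.28, adjusted p = 9.38e-07), and Slc20a1, a phosphate importer, from 228 and 307 to 136 and 116. Axon guidance genes rose in 7 of 31 cases and fell in 3, with Sema6c rising from 9.78 and 12.6 to 43.6 and 53.7 CPM (log2 2.09 ± 0.29, adjusted p = 1.16e-06) and Sema7a falling from 375 and 348 to 199 and 156. The risen counts shrank without a siCtrl library. Without that of batch 2, 2 channel genes rose and 2 fell, 6 Slc genes rose and 4 fell, and 1 axon guidance gene rose and 2 fell, and without that of batch 1 it was 3 and 2, 11 and 12, and 2 and 2.

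Genes of the unfolded protein response, which expands the folding capacity of the endoplasmic reticulum, fell in 8 of 15 cases and rose in 0 (median -0.60). Atf6, a membrane-bound sensor and transcription factor of the response, fell from 229 and 111 to 72.6 and 25.1 CPM (log2 -1.87 ± 0.25, adjusted p = 9.08e-07). The lectin chaperone Canx fell from 3659 and 2169 to 1507 and 839.9 CPM (log2 -1.32 ± 0.21, adjusted p = 1.29e-05), the disulfide isomerase Pdia6 from 1454 and 1862 to 685 and 765 (log2 -1.18 ± 0.21, adjusted p = 8.39e-05) and the secreted factor Manf from 222 and 348 to 113 and 114 (log2 -1.27 ± 0.24, adjusted p = 1.46e-04). In each of the 4 the siPaf1 libraries lay below the siCtrl libraries. Heat shock proteins and chaperones of the cytosol and mitochondria went both ways, with 3 of 15 risen and 3 fallen: Dnajb4 rose from 185 and 233 to 425 and 574 CPM, Cryab, abundant in muscle, from 307 and 737 to 733 and 1236, and Hspe1, the co-chaperonin of mitochondria, fell from 488 and 439 to 124 and 194 (log2 -1.57 ± 0.24, adjusted p = 5.93e-06). Of 16 integrated stress response genes 2 rose and 4 fell, and of 10 aminoacyl-tRNA synthetases 0 rose and 3 fell, among them Dars, from 578 and 672 to 216 and 248 CPM. With siCtrl of batch 2 left out, 7 unfolded protein response genes fell, 0 of the integrated stress response were called, and of the heat shock proteins and chaperones 2 rose and 1 fell.

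Among metabolic genes, oxidative phosphorylation rose in 6 of 39 cases and fell in 0 (median 0.28), a risen share close to the 16.3% of all genes, and glycolysis rose in 3 of 13 and fell in 1. Pfkl, a phosphofructokinase, rose from 307 and 562 to 844 and 1036 CPM (log2 1.18 ± 0.23, adjusted p = 1.49e-04). NRF2 and antioxidant genes rose in 6 of 26 cases and fell in 4. Taldo1, of the pentose phosphate pathway, rose from 66.4 and 103 to 293 and 419.8 CPM (log2 2.08 ± 0.23, adjusted p = 5.66e-08), and Prdx6 from 144 and 203 to 342 and 436, while Nfe2l2, the NRF2 gene itself, fell from 158 and 157 to 97.1 and 70.8 (log2 -0.90 ± 0.24, adjusted p = 0.00498). Lipid metabolism and adipocyte genes fell in 8 of 22 cases and rose in 3. Acsl1, which activates long-chain fatty acids, fell from 102 and 49.1 to 23.3 and 11.5 CPM (log2 -2.10 ± 0.29, adjusted p = 1.14e-06), the desaturase Fads2 from 158 and 256 to 59.2 and 66.0, and Plin2, a coat protein of lipid droplets, rose from 619 and 1197 to 1649 and 2161 (log2 1.14 ± 0.22, adjusted p = 1.38e-04). Of 14 cholesterol genes 1 rose and 3 fell. Of 39 ribosome biogenesis genes 2 rose and 5 fell, of 40 cytosolic ribosomal proteins 5 rose and 2 fell, and of 28 genes of the mitochondrial ribosome 5 rose and 3 fell. Lysosome and autophagy genes had 4 of 22 calls in each direction, genes with Psm names, of the proteasome and its assembly, 4 of 24 in each, with Psmc3ip, a recombination factor and no proteasome gene, among the fallen, ubiquitin ligase adaptors 7 risen and 6 fallen of 63, and Ras and Rab family genes 1 and 3 of 31. Complement and coagulation genes rose in 2 of 6 cases and fell in 1, and of 3 histone variants and 3 Groucho corepressors 0 were called. Interferon-stimulated genes rose in 5 of 22 cases and fell in 2, with Gbp2, a guanylate-binding protein, at 1.12 and 3.70 CPM in siCtrl and 7.62 and 26.9 in siPaf1. Counts in these lists moved by more than 1.5-fold with single libraries. Without the siCtrl library of batch 2, NRF2 genes had 3 risen and 1 fallen, ribosome biogenesis 0 and 1, lysosome and autophagy 1 and 0, the Psm genes 0 and 2, interferon-stimulated genes 2 and 1, and cholesterol 0 calls, and without the siPaf1 library of batch 1 NRF2 genes had 5 risen and 11 fallen. Oxidative phosphorylation had 2 risen without the siCtrl library of batch 1, 13 risen without the siPaf1 library of batch 2, and 4 risen and 7 fallen without the siPaf1 library of batch 1.

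Markers of other cell types were low or moved singly. Summed levels in this paragraph are CPM of the raw library totals, without TMM, and are not on the scale of the other CPM values. Endothelial markers were too low to test, with 0 of 5 past the filter on low counts, and their summed level was between 0.469 and 1.43 CPM in the 4 libraries. Leukocyte markers summed to 29.7 and 26.6 CPM in siCtrl and 9.76 and 5.72 in siPaf1, almost all of it Cd14 (log2 -2.03 ± 0.34, adjusted p = 1.75e-05), and Cd52 and Itgam had 3 reads or fewer in all. Neuronal markers summed to 124 and 223 CPM in siCtrl and to 476 and 1582 in siPaf1, which was nearly all Stmn2, a regulator of microtubules (log2 2.42 ± 0.24, adjusted p = 1.23e-08). The neuronal genes Dcx and Elavl4 had 3 reads or fewer in the 4 libraries. Osteoblast and chondrocyte markers summed to 181 and 204 CPM in siCtrl and to 423 and 738 in siPaf1, mainly Mgp, matrix Gla protein (log2 1.89 ± 0.23, adjusted p = 2.76e-07), with Bglap, Chad and Ibsp at 3 reads or fewer. Adipocyte markers summed to 54.0 and 71.8 CPM in siCtrl and to 23.9 and 17.2 in siPaf1, mainly Pparg (log2 -2.0 ± 0.29, adjusted p = 2.43e-06). Epithelial markers summed to 90.0 and 216 CPM in siCtrl and to 109 and 296 in siPaf1. Of the 5 tested, only Ocln was called, and it fell (log2 -1.34). Among these 5, 2 lay above 0 in both batches and 2 below 0 in both. Myoblast markers summed to 2801 and 3319 CPM in siCtrl and to 3023 and 3244 in siPaf1, so the groups overlapped, with Des higher and Cdh15 and Vcam1 lower. The part of other cells in any result above was not tested.

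Cdc73, another subunit of the complex, was depleted in the same batches. The siPaf1 and siCdc73 libraries were compared directly, and 28.2% of all genes tested differed in either direction. Of the 1061 genes that rose after siPaf1, 310 were higher and 67 lower in siPaf1 than in siCdc73, and of the 1056 that fell, 299 were lower and 67 higher. Against siCtrl, the median changes of the risen genes were 1.13 after siPaf1 and 0.85 after siCdc73, and those of the fallen genes -1.14 and -0.87. Since the members were chosen on the siPaf1 libraries and both knockdowns share the controls, these shares and medians are a description.

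In the Wnt pathway, muscle and zinc finger lists the shares of genes that differed are read against the 28.2% of all genes, to which those of the Wnt and Zfp lists are close. Of the 24 Wnt pathway genes 8 were higher and 0 lower in siPaf1, and the list medians against siCtrl were 0.68 and -0.09. Axin2 stood at 0.929 and 1.6 CPM in the siCdc73 libraries, below the 2.80 and 3.36 of siCtrl and the 45.4 and 92.8 of siPaf1 (siPaf1 minus siCdc73 5.36 ± 0.42, adjusted p = 4.25e-11). Sfrp2 stood at 22.4 and 15.0 CPM in siCdc73 (difference 2.29 ± 0.30, adjusted p = 1.48e-06), and Irx3 at 15.0 and 24.9 (difference 3.32 ± 0.31, adjusted p = 5.96e-09). Of the 35 muscle genes 12 were higher and 3 lower in siPaf1, with medians of 0.49 and -0.20. Actc1 went in opposite directions, with 0.619 and 2.87 CPM in siCdc73 (log2 change -2.73 against siCtrl, and a difference of 4.71 ± 0.41, adjusted p = 2.74e-10). Tnnt1 stood at 2.63 and 9.89 CPM in siCdc73 (difference 2.68 ± 0.35, adjusted p = 1.11e-06), Fst at 6.50 and 0.958 (3.22 ± 0.38, adjusted p = 2.13e-07) and Des at 631 and 1104 (0.97 ± 0.21, adjusted p = 0.00131). Il33 stood at 2.94 and 2.55 CPM (difference 3.66 ± 0.40, adjusted p = 3.92e-08), and Dcn, the proteoglycan decorin, at 4.49 and 10.9 against 28 and 63.5 in siPaf1 (2.54 ± 0.33, adjusted p = 9.78e-07). Of the 145 Zfp genes 43 were higher and 4 lower in siPaf1, with medians of 0.35 and -0.20.

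**Figure D4:**
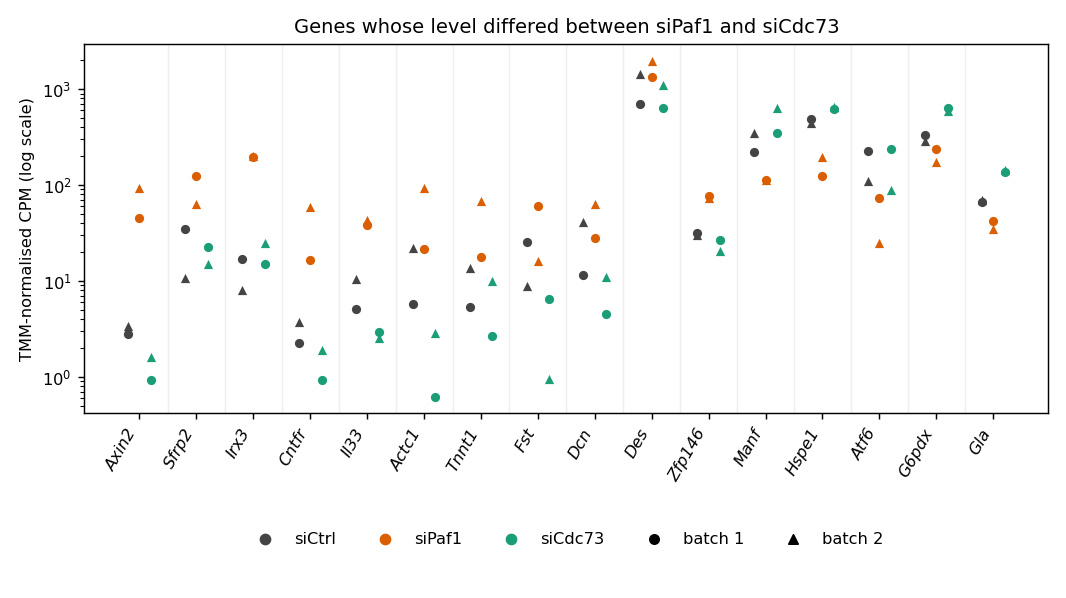
TMM-normalised CPM (log axis) of 16 genes in the siCtrl (grey), siPaf1 (orange) and siCdc73 (green) libraries, circles for batch 1 and triangles for batch 2. The orange points lie above the green ones from Axin2 to Zfp146 within each batch, and below them from Manf to Gla.

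Other lists were lower in siPaf1 than in siCdc73. Of 15 unfolded protein response genes 10 were lower and 0 higher, with medians of -0.60 after siPaf1 and 0.47 after siCdc73. Manf stood at 347 and 642 CPM in siCdc73 (siPaf1 minus siCdc73 -2.04 ± 0.25, adjusted p = 4.70e-07), Atf6 at 235 and 87.8 (-1.72 ± 0.25, adjusted p = 6.41e-06) and Hspe1 at 614 and 649.5 (-2.01 ± 0.24, adjusted p = 3.80e-07). Of 26 NRF2 and antioxidant genes 13 were lower and 1 higher, with medians of -0.20 and 0.66. G6pdx, the first enzyme of the pentose phosphate pathway, stood at 336 and 290.1 CPM in siCtrl, 235 and 173 in siPaf1 and 637 and 593 in siCdc73 (-1.60 ± 0.23, adjusted p = 5.40e-06), and the lysosomal galactosidase Gla at 66.4 and 69.6 CPM in siCtrl, 41.7 and 34.9 in siPaf1 and 136 and 142 in siCdc73 (-1.84 ± 0.25, adjusted p = 2.82e-06). In the mitosis lists, 4 of 21 kinetochore genes were lower in siPaf1 than in siCdc73 and 0 higher, 2 of 22 spindle genes were lower and 0 higher, 4 of 19 kinases, cyclins and APC/C genes were lower and 2 higher, and of 9 condensin and cohesin genes 0 were lower and 1 higher, against the 28.2% of all genes. The medians after siPaf1 and siCdc73 were -1.92 and -1.44 for the kinetochore, -1.92 and -1.96 for the spindle, -1.80 and -1.20 for the kinases, cyclins and APC/C and -0.88 and -0.87 for condensin and cohesin. These counts do not show that the other genes were alike. In DNA replication 5 genes were higher and 6 lower in siPaf1, and Mcm2 was among the lower, at 281 and 221 CPM in siCdc73 (difference -1.49 ± 0.23, adjusted p = 2.01e-05).

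The 3'READS libraries of the same depletions, which count reads at the poly(A) end of transcripts, gave a second measure of the same genes. Over the 12579 genes tested there, 8.63% rose and 9.07% fell after siPaf1 by the same rule. Of the genes risen in RNA-seq, 887 were tested in 3'READS, and 86.2% lay above 0 in both batches and 2.03% below 0 in both. Of the genes fallen in RNA-seq, 957 were tested, and 86.3% lay below 0 in both batches and 2.30% above. Among all 5610 genes tested in both assays, 36.3% lay above and 36% below 0 in both batches. Fewer genes passed the test in 3'READS. Of the 887, 344 were called risen and 2 fallen there, and of the 957, 438 fallen and 0 risen. Of all 5610, 480 were called risen and 564 fallen. The median 3'READS change was 0.92 in batch 1 and 1.08 in batch 2 for the risen genes, and -0.94 and -1.17 for the fallen genes. The labels do not say whether both assays used the same RNA.

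List members without an RNA-seq value here could be followed in 3'READS. Of 62 such mitosis genes 43 fell and 0 rose, with a median of -1.74 (-1.58 and -1.93 by batch), and of 28 such DNA replication genes 19 fell and 0 rose (median -1.22). For recombination and Fanconi repair it was 14 of 25 fallen and 0 risen, and for the Wnt pathway 5 of 20 risen and 0 fallen, although the median of these 20 was 0.03. Of 20 such muscle genes 3 rose and 1 fell (median 0.49). Of the muscle genes with an RNA-seq value, 3 of 30 rose and 2 fell in 3'READS (median 0.67), against 8.63% and 9.07% of all genes tested there. Irx3 changed by 3.68 and 3.65 in the 2 batches of 3'READS, Cep55 by -2.71 and -3.06 and Kdm5b by 1.91 and 2.06. Some called genes did not pass the test there. Axin2 changed by 0.70 and 2.54 in 3'READS with an adjusted p of 0.232, Slc33a1 by 2.85 and -2.92, and Atf6 by -0.65 and 0.80, the last 2 with opposite signs in the batches. In the 3'READS library of siPaf1 in batch 2, 271 genes with at least 30 reads stood more than 20-fold above every other library and held 1.04% of its reads, of which 6 were tested in RNA-seq and 3 called.

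**Figure D5:**
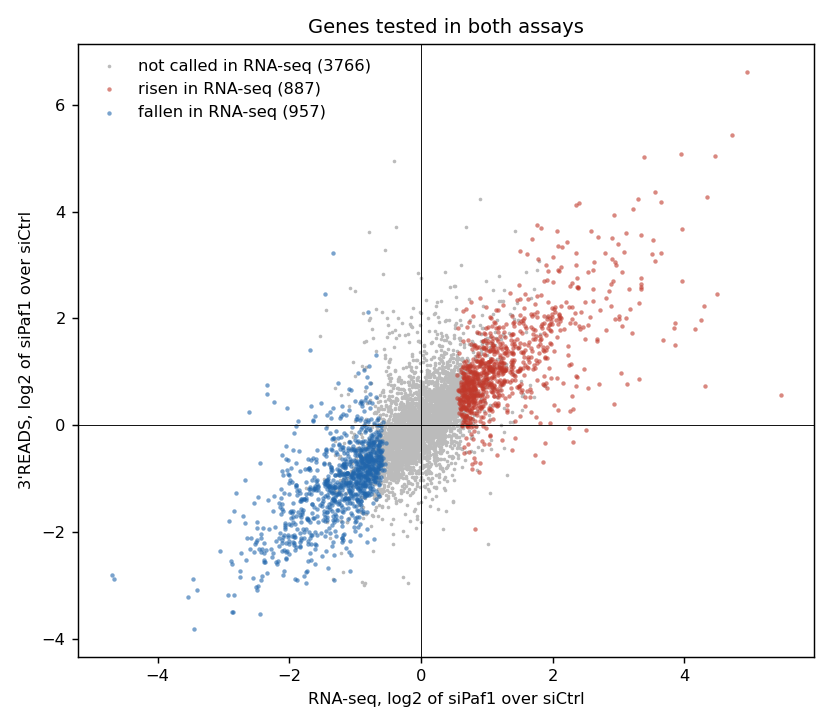
Log2 ratio of siPaf1 to siCtrl in RNA-seq (horizontal) and 3'READS (vertical) for the 5610 genes tested in both, red for genes risen and blue for genes fallen in RNA-seq, grey for the others. Most red points lie in the upper right and most blue points in the lower left, with medians in 3'READS of 1.02 and -1.02.

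Genes that rose tended to be short and low in control cells, and genes that fell longer and higher, as a description. The median span on the genome was 19136 bases for risen, 29427 for fallen and 24471 for all genes tested, over the genes with an mm9 model. In the quintile of genes with the shortest span, 18.3% rose and 12.8% fell, and in the longest quintile 12.6% rose and 17.5% fell. The median log2 change went from 0.11 in the shortest quintile to -0.06 in the longest, while the difference between the siCtrl libraries, batch 2 minus batch 1, went from 0.30 to -0.29 over the same quintiles and was thus larger. The median RPKM in siCtrl was 7.40 for risen and 21.8 for fallen genes, against 13.3 for all. In the lowest quintile by siCtrl RPKM 25.7% rose and 3.37% fell, and in the highest quintile 12.3% rose and 23.5% fell. A gene low in siCtrl passes the filter more readily where siPaf1 or siCdc73 raises it, and siCtrl is part of both axes, so this trend is not independent of the comparison. Over quintiles of coding length the medians lay between -0.01 and 0.04, but the batches went opposite ways, from 0.11 in the shortest to -0.06 in the longest quintile in batch 1 and from -0.17 to 0.10 in batch 2. Along the same quintiles the siCtrl library of batch 2 minus that of batch 1 had a median log2 difference of 0.54 in the shortest and -0.43 in the longest.

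Reads at intronic poly(A) sites, counted in 3'READS, were set beside the RNA-seq change. In 329 genes the ratio of intronic to last-exon reads rose more than 2-fold in both batches, and 14% of them rose and 24.6% fell in RNA-seq (median -0.16). In 122 genes the ratio dropped more than 2-fold in both batches, and 33.6% rose and 10.7% fell (median 0.34). Among the other 632 genes with at least 20 reads of each kind 15.2% rose and 14.4% fell. Last-exon reads form the lower part of the ratio and also follow the level of a gene. The groups are therefore not independent of the RNA-seq change, and a link between site use and level was not tested.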

How the data were processed

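RNA-seq of 2 siCtrl, 2 siPaf1, 2 siCdc73 libraries and 1 siSki8 library was used, with 7 3'READS libraries of the same groups and batches. The authors sequenced strand-specific libraries from RNA depleted of rRNA, mapped them by local alignment with Bowtie2 to mm9, discarded reads without a unique position, and deposited counts of reads over the coding region of each RefSeq transcript and RPKM values derived from them; the version of Bowtie2 is not given in the sources used here. For 3'READS they deposited counts of poly(A) site supporting reads per site.

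Of 15033 transcript rows, the one with the highest mean count stood for each of 9999 gene symbols. Counts were filtered (filterByExpr), scaled by TMM and fitted with edgeR 4.0.16 (R 4.3.3, glmQLFit, glmQLFTest) with group and batch, over all 7 libraries. Benjamini-Hochberg adjustment ran over all genes tested. The log2 ratios, but not their standard errors, carry a prior count of 2. The study's own methods state no batch term, and the block was used because the labels give shared batches. Deviations from the group means correlated between libraries of a batch across 6521 genes (r = 0.620, 0.748 and 0.633 for the 3 pairs of groups). Site counts were summed per gene on the sense strand and fitted in the same way. The deposited RPKM values were used only for the order of genes by control level. CPM comes from the fit, except in the summed marker levels, which use raw library totals. DESeq2 1.42.0 was an alternative, and tables and plots used Python 3.11.15, pandas 2.3.3, numpy 2.4.6, scipy 1.17.1 and matplotlib 3.10.9.

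Named genes are the Paf1C subunits, genes the paper names, in each direction the 12 genes whose smaller change of both batches was largest, counting only called genes whose mean over the 4 libraries was 50 reads or more, and up to 4 called members of each of 62 gene lists in each direction, with the smallest adjusted p, or 2 members where none was called. Some of these genes and 1 list are not reported here. Lists taken by gene name can hold genes of other function. Genes and lists were chosen with earlier results of these data known. Tested on simulated data, the fit recovered 89 of 188 genes changed 2-fold among 6193 and gave 0 a wrong sign, which would have stopped the run. Every simulated group had the same fixed spread and exactly the batch difference of siCtrl. In the real libraries the batch differences correlated between groups at 0.620 to 0.748, so the simulation does not show how the block performs on them. Promoters and their sequences are RefSeq's, from GRCm38.p6, and gene coordinates are mm9. Counting error and PCR duplicates were not separated.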

Additional observations from a re-analysis of the deposited data

How the results depend on the processing

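Without the replicate block, 0 genes were called risen and 0 fallen, and Paf1 changed by -2.37 with an adjusted p of 0.0835. With the study's thresholds (1.4-fold and a p under 0.01 in Fisher's exact test), applied here to reads pooled over batches, 1694 genes rose and 1427 fell. Leaving out each library in turn gave 400 to 1150 risen and 464 to 1194 fallen genes, the lowest of both without the siCtrl library of batch 2, and a change of Paf1 between -2.39 and -2.32; a group with 1 library was assumed to vary like the others. The other alternatives (the 4 siCtrl and siPaf1 libraries alone, library size or RLE scaling, no filter, the mean over transcripts, DESeq2) kept both counts within 1.5 times. Scaling and filtering shifted the median of all genes by at most 0.03, and leaving out the siPaf1 library of batch 1 shifted it by -0.04. In the fits with both libraries of siCtrl and siPaf1 that called genes, the risen share of calls lay between 49.2% and 52.5%. It was lower without either siCtrl library. Of 319 called genes named by the rule, 0 reversed under any fit; calls were lost for 123 without the siCtrl library of batch 2, 75 without that of batch 1, 45 and 30 without the siPaf1 libraries of batches 2 and 1, 26 with DESeq2, 24 with 4 libraries and 2 or fewer with other scaling or filters. The cause of these losses was not tested. Depth limits low genes most in the siPaf1 library of batch 2.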
